A study of Mus musculus with 3 samples.

Results

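CpG islands marked by Nkx2.2 away from annotated gene starts made up 1199 of the 37271 regions in the deposited table. They are the regions to which the authors assigned at least 1 CpG island and for which no listed gene start lay within 1 kb of the middle of the region, regions with no listed gene included. The remaining regions comprised 29458 with no island over 1 kb from a start, 5512 with an island within 1 kb of a start and 1102 with no island within 1 kb of a start. Nkx2.2 was mapped by chromatin immunoprecipitation and sequencing in cultured mouse oligodendrocyte progenitor cells (OPCs) and in the oligodendrocytes (OLs) derived from them. Both libraries came from cortices of C57BL/6 mice at postnatal day 7, from cells isolated with an antibody to PDGFRA and expanded in culture with 10 ng/mL PDGF-AA, 10 ng/mL CNTF and 1 ng/mL NT-3. The OPC library was made from cells kept dividing in these factors, and the OL library from cells left for 48 h without PDGF-AA and with the thyroid hormone T3 at 40 ng/mL. Each library used 1.5e7 cells and the same monoclonal antibody to Nkx2.2, and all cells were isolated and cultured together, from a number of animals that the labels do not state. Each state has 1 library, so no difference below has a replicate check, no test between states was possible, and sequencing depth is not known. An input library of both cell states together was not analysed here, and no level of background was therefore set.

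A CpG island is a stretch of DNA that keeps a high density of CpG dinucleotides because it is usually free of DNA methylation, and most lie at gene starts. Islands away from annotated starts, often called orphan islands, can hold unannotated or tissue-specific promoters, 3′ ends, enhancers or the imprinting control regions of imprinted genes. Nkx2.2 is a homeodomain transcription factor that patterns the ventral neural tube, recruits Groucho corepressors, and is needed for the differentiation of oligodendrocytes. The label of an island away from a start holds for the distance rule, but not in the sense of islands far from any promoter. A promoter feature had been assigned by the authors to 510 of the 1199 regions, 42.5% (95% interval 39.7 to 45.4%), against 9.17% of the no-island regions over 1 kb from a start. Among regions with a single listed gene, that feature reached from -8202 to 3083 bp of the start, a wider window than the 1 kb used here. Intervals on shares are exact Clopper-Pearson intervals that cover counting error over regions only.

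Several of these islands lay near miRNA genes and near starts rich in CpG, whose sequences are given here because the results below return to them. Of 23 miRNA genes listed at 15 of the island regions, 22 matched a RefSeq entry by name and 21 had a mature sequence. The mature miRNAs, from RefSeq (GRCm38.p6) and written 5′ to 3′ with the seed (bases 2 to 8) in capitals, fall into groups by seed. The let-7 members listed at 3 island regions share 1 seed, miR-17 and miR-20a share another, and miR-19a and miR-19b share another.
let-7a-5p: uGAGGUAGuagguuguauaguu
let-7d-5p: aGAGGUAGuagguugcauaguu
let-7e-5p: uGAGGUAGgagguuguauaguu
let-7f-5p: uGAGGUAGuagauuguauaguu
miR-17-5p: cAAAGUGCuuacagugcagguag
miR-20a-5p: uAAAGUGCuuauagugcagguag
miR-19a-3p: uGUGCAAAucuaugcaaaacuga
miR-19b-3p: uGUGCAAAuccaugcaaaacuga
miR-9-5p: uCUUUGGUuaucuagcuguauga
miR-130a-3p: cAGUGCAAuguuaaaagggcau
miR-135b-3p: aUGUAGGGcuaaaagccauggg
miR-346-5p: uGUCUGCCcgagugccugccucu

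The windows from 250 bases before to 50 after the RefSeq start of 4 genes show how CpG content differed at starts that had an island region nearby. Ctnnb1 and Ccdc6 are shown because their island regions had ratios of opposite sign, Nkx2-2 because it encodes the factor itself, and Pdgfra because its 2 islands past the start also had opposite signs. The windows are given 5′ to 3′ on the strand of the gene, with each CpG in capitals, and their coordinates belong to GRCm38.p6 and not to the mm9 build of the regions. Ctnnb1, for which the earlier of its RefSeq starts on the strand is shown, held 46 CpG, Ccdc6 44, Nkx2-2 17 and Pdgfra 5.
Ctnnb1 (chr9:120933150-120933449, plus strand): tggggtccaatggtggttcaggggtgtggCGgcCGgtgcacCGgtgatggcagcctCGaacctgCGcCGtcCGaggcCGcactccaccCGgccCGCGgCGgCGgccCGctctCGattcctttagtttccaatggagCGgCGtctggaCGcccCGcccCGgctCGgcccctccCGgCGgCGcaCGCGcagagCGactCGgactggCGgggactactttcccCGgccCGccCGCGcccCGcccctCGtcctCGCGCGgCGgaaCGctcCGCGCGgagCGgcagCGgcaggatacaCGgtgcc
Ccdc6 (chr10:70096871-70097170, plus strand): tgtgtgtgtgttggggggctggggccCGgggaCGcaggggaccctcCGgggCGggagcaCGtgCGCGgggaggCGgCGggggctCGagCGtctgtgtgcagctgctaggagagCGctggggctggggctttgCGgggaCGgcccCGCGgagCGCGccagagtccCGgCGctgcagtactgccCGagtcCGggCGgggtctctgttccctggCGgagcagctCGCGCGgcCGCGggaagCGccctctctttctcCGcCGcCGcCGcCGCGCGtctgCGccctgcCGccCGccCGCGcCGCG
Nkx2-2 (chr2:147186353-147186652, minus strand): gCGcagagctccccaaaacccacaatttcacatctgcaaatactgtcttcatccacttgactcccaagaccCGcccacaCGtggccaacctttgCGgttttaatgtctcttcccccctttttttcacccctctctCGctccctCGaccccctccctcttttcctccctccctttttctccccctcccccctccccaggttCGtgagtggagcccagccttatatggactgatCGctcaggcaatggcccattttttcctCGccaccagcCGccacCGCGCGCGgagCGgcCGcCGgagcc
Pdgfra (chr5:75152001-75152300, plus strand): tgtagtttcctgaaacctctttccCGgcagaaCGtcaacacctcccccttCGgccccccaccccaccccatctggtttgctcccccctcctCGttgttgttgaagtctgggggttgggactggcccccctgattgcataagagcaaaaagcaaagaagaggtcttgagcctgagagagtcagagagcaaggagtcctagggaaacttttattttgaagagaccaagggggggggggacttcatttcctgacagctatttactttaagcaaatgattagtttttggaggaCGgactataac
Over the 811 genes that had an island region over 1 kb from a start and a window in the RefSeq table, the median was 22 CpG per window, with quartiles of 13 and 30.5. The 10087 genes with any Nkx2.2 region had a median of 21 and all 27025 genes of the table one of 8. The 4240 genes with only no-island regions over 1 kb from the start had a median of 16, with quartiles of 6 and 27. Genes with an island region thus had starts about as rich in CpG as genes with any region. At the median they were richer than genes with only no-island regions over 1 kb away.

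Most of the islands were called in OL, and fewer than 4 in 10 in OPC. Calls in OPC fell on 463 of the 1199 island regions, 38.6% (35.8 to 41.4%), and over all 37271 regions the share was also 38.6%. Calls in OL fell on 1057 of them, 88.2% (86.2 to 89.9%), where the share over all regions was 85.3%. Both libraries had a call at 321, 26.8% (24.3 to 29.4%), beside 23.8% of all regions. The OPC share was therefore at the background of all regions, and the OL and shared calls lay slightly above it. A call in OL alone was made at 736 islands, 61.4%, and over all regions the share was also 61.4%. One in OPC alone was made at 142 islands, 11.8%, beside 14.7% of all regions. The OPC-only share of 11.8% (10.1 to 13.8%) lay between the 5.39% of islands within 1 kb of a start and the 16.6% of no-island regions over 1 kb from a start. Read from the side of the calls, the islands formed 3.62% (3.24 to 4.02%) of the regions called in both, 3.21% (2.99 to 3.45%) of OL-only regions and 2.59% (2.18 to 3.04%) of OPC-only regions. They were 1199 of all 37271 regions, so the OL-only share was at that of all regions.

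Signal at the islands was moderate and rarely extreme in either library. The average signal in OPC had quartiles of 2.29 and 4.46 around a median of 3.33, and in OL quartiles of 4.08 and 6.13 around a median of 4.91. The lowest value was 0 in each, listed at 11 islands in OPC and at 2 in OL. These were 0.92% and 0.17% of the islands, beside 6.04% and 0.86% of all regions. The highest values were 51.2 in OPC and 60.1 in OL, both at 1 region 6126 bp long on chromosome 17. Without that region the highest were 14.4 in OPC and 21.3 in OL. The top 10% of all regions by OPC signal held 3.75% (2.75 to 4.99%) of the islands, and the top 10% by OL signal 3.59% (2.61 to 4.80%), against 11.3% and 11.2% of the no-island regions over 1 kb from a start. Islands over 1 kb from a start were thus found less often among the strongest Nkx2.2 regions of either state than no-island regions over 1 kb from a start. The intervals of these shares did not overlap. Islands within 1 kb of a start also had low shares, 4.50% by OPC signal and 5.81% by OL signal. No-island regions within 1 kb of a start had 8.80% and 6.53%. Among the islands a call in OPC was made down to a signal of 2.48 and a call in OL down to 2.96. Islands called in OL only had a median signal of 2.53 in OPC, and those called in OPC only one of 2.67 in OL.

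**Figure D1:**
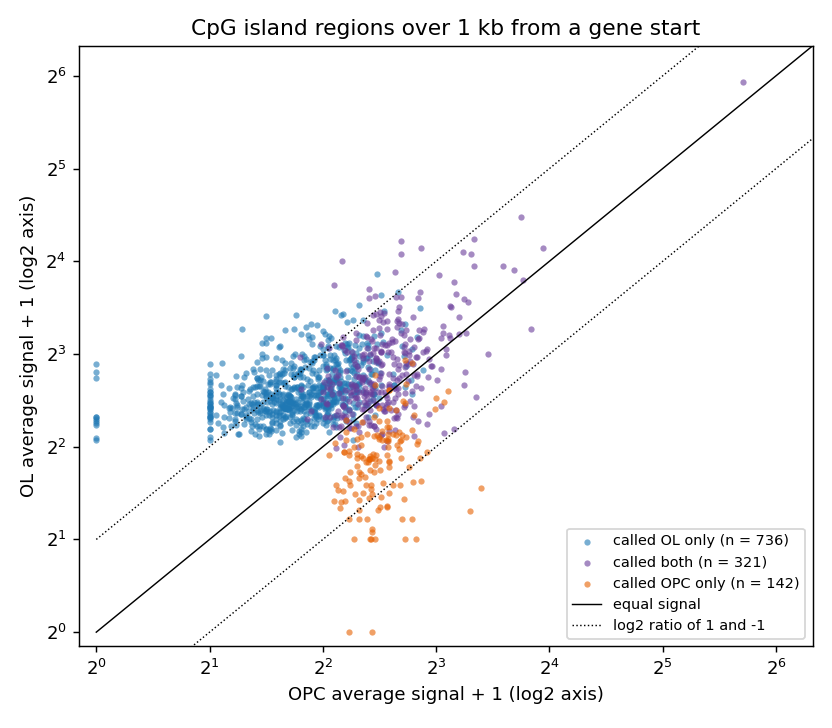
Average Nkx2.2 signal + 1 in the OPC library (x axis, log2 scale) and the OL library (y axis, log2 scale) for the 1199 CpG island regions over 1 kb from a gene start, 1 point per region, coloured by the library of the call. Most points lie above the line of equal signal and inside the dotted lines of a log2 ratio of 1 and -1, on the deposited scale, with 1 region far above the rest in both libraries.

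Large ratios between OPC and OL were less common at the islands than at other regions far from starts. On the deposited scale the median of log2((OL + 1) / (OPC + 1)) was 0.58 over the islands, against 0.82 over no-island regions over 1 kb from a start, 0.61 over islands within 1 kb of a start and 0.74 over all regions. Its SD over regions was 0.65 at the islands, 1.14 at the no-island regions over 1 kb from a start and 0.53 at islands within 1 kb. A log2 ratio of 1 or more, after the pseudocount of 1, was reached by 242 islands, 20.2% (17.9 to 22.6%), beside 37.5% of all regions. The share was 42.2% (41.7 to 42.8%) at the no-island regions over 1 kb from a start and 19.2% (18.2 to 20.3%) at islands within 1 kb. At the other end, 29 islands had a log2 ratio of -1 or less, 2.42% (1.63 to 3.46%), beside 7.03% of all regions. There the no-island regions had 8.45% (8.14 to 8.78%) and islands within 1 kb of a start 0.78% (0.57 to 1.05%). No-island regions within 1 kb of a start had a median of 0.54 and an SD of 0.83. Of them 22.6% (20.2 to 25.2%) were at 1 or more and 5.35% at -1 or less. Their interval at 1 or more overlapped that of the islands, so a low share there was not particular to islands. By the SD of their ratios, islands over 1 kb from a start were closer to islands at a start than to no-island regions over 1 kb away.

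How the libraries are scaled against each other decides the sign of the median. The authors' scaling between libraries is not given in the sources used here. Setting the median of the regions called in both libraries to 0 lowers each log2 ratio by 0.24, which left a median of 0.34 over the islands and 9.51% and 4.34% of them at 1 or more and -1 or less. Setting the median of all regions to 0 lowers each by 0.74, which turned the median over the islands to -0.15 and left 1.42% and 12.2%. On that last scale the no-island regions over 1 kb from a start had a median of 0.08, nearer to 0 than that of the islands, and 16.2% of them reached 1 and 20.1% reached -1 or below, so the islands held the smaller share on each side under all 3 scalings. A region or list whose log2 ratio lies between 0 and 0.74 changes sign between the deposited and the last scale, and ratios below are on the deposited scale.

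**Figure D2:**
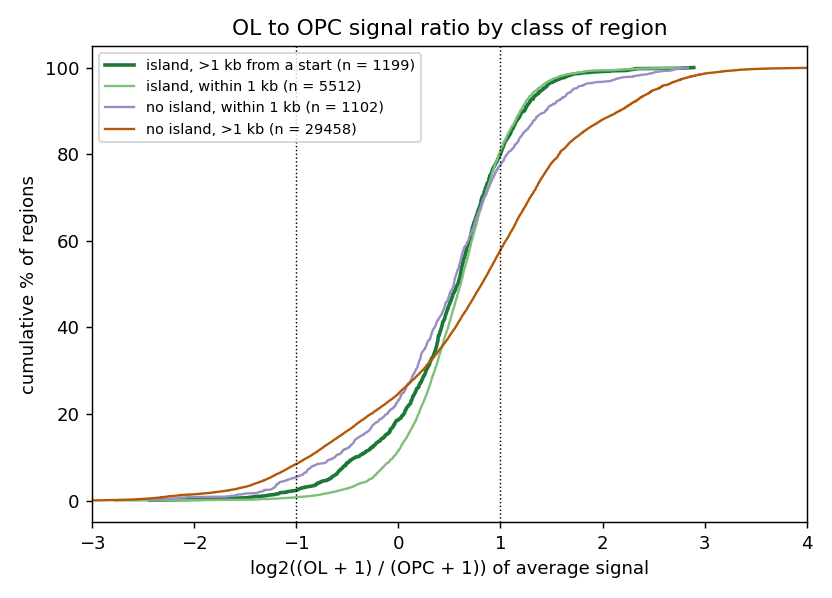
Cumulative percentage of regions (y axis) by log2 ratio of OL to OPC average signal with a pseudocount of 1 (x axis, deposited scale), 1 line for each of the 4 classes set by CpG island and by 1 kb from a gene start. The lines of both island classes rise steeply between the dotted marks at -1 and 1, while 42.2% of the no-island regions over 1 kb from a start lie at 1 or beyond.

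Differences in signal strength accompanied these classes, so they were also set side by side at like signal, a split chosen after the data had been seen. All regions were put into 5 equal groups by the mean of both libraries, and 156, 293, 303, 288 and 159 islands fell into them from the weakest to the strongest. In the weakest group 44.9% (36.9 to 53.0%) of islands and 58.9% of no-island regions over 1 kb from a start had a log2 ratio of 1 or more. In the middle group the shares were 14.9% (11.04 to 19.4%) and 37.8%, and in the strongest 13.2% (8.37 to 19.5%) and 36.2%. The share of islands was the lower one in each of the 5 groups. Log2 ratios of -1 or less were found at 7.69% (4.04 to 13.1%) of islands in the weakest group and at 0 of 159 in the strongest, for which the interval reaches 2.29%, where no-island regions had 12.7% and 7.37%. Large ratios were commoner at weak regions in both classes.

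**Figure D3:**
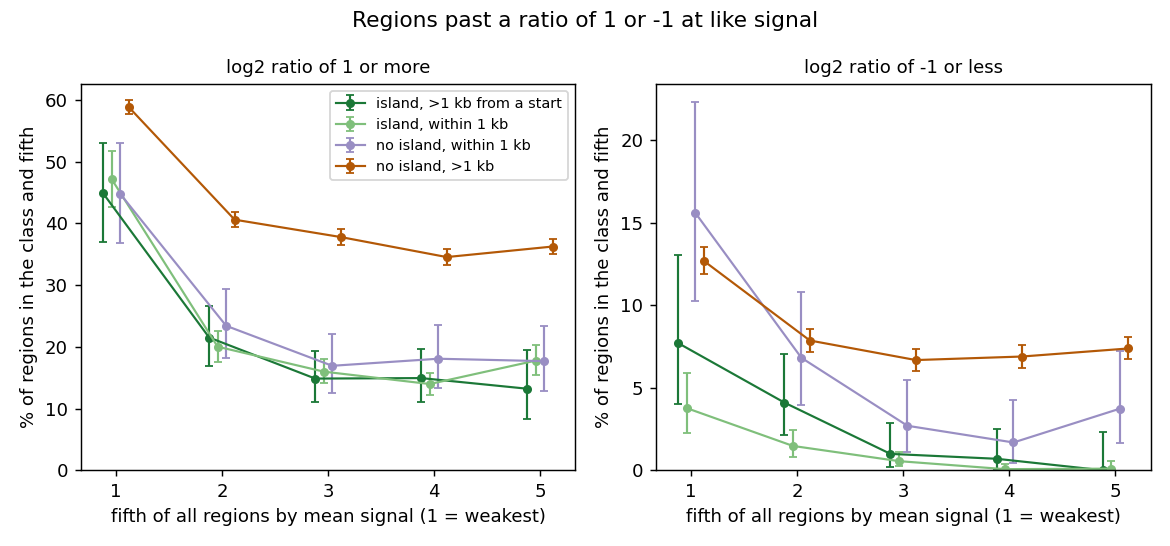
Percentage of regions at a log2 ratio of 1 or more (left) and of -1 or less (right), in 5 equal groups of all 37271 regions by mean signal of both libraries (x axis, 1 is the weakest), for the 4 classes set by CpG island and distance to a start. Points are shares and bars exact 95% intervals over regions, and the no-island class over 1 kb from a start lies highest in each of the 5 groups of the left panel.

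Where the islands lay relative to genes differed from other regions away from starts. Inside a gene lay 539, 45.0% (42.1 to 47.8%), upstream of one 258, 21.5% (19.2 to 23.95%), and downstream 109, 9.09% (7.52 to 10.9%). No gene was listed for 293, 24.4% (22.0 to 27.0%). Of the no-island regions over 1 kb from a start, 51.3% lay inside a gene, 6.85% upstream and 36.1% had no listed gene. Upstream positions were therefore commoner among islands, and positions with no gene less common, with intervals that did not overlap. The promoter feature was held by 233 of the 258 upstream islands. Calls differed little by position, since OL called 86.8% of islands inside genes, 89.9% upstream, 89.0% downstream and 88.7% with no gene. Ratios of 1 or more were found at 24.7% (21.1 to 28.5%) of islands inside genes and 14.7% (10.6 to 19.7%) upstream, intervals that do not overlap.

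Most islands with a gene lay within a few kb of its start. The median distance from the middle of the region to the nearest listed start was 3596 bp over the 906 islands with a gene, with 295 at 1 to 2 kb, 233 at 2 to 5 kb, 156 at 5 to 10 kb, 146 at 10 to 50 kb, 46 at 50 to 100 kb and 30 farther away. Because the distance is taken from the middle, 149 islands still had an edge within 1 kb of a start and 2 covered one. The lower share of ratios of 1 or more was also seen at like distances. At 1 to 2 kb from a start 19.7% of islands and 32.3% of the 743 no-island regions had a ratio of 1 or more, at 10 to 50 kb 20.5% and 44.7%, and with no listed gene 17.1% and 40.6%. Islands had the lower share in each of the 7 groups by distance, the smallest of which holds 30 islands. Ratios of -1 or less were at the lower share among islands in 6 of the 7 groups, and at 50 to 100 kb they were found at 8.70% of the 46 islands and 7.43% of no-island regions. The 10 islands just past the limit, 1002 to 1010 bp from a start, had OPC signal of 1.67 to 11.9 and OL signal of 1.56 to 14, and the 10 island regions just short of it, 982 to 1000 bp from a start, had 1.09 to 4.29 and 3.54 to 9.78.

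**Figure D4:**
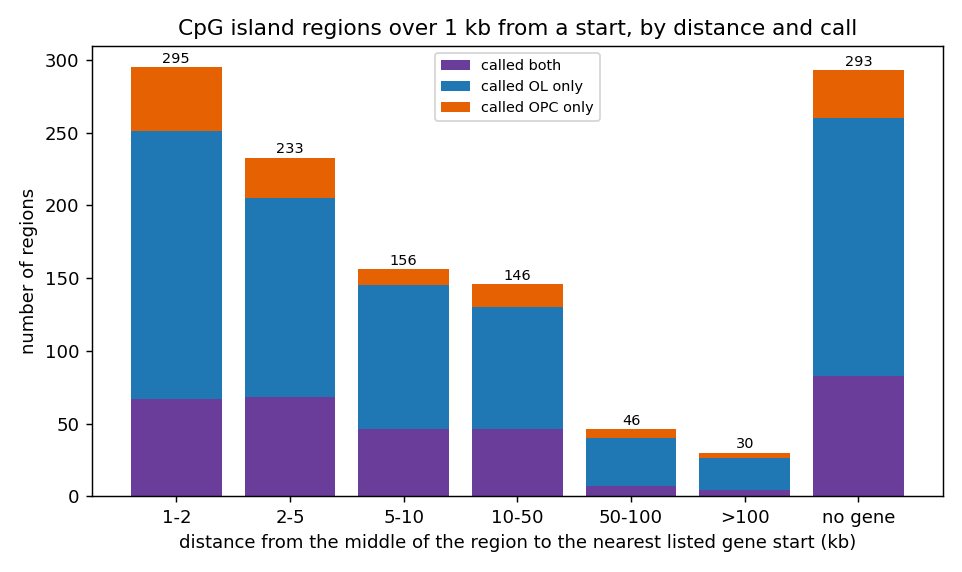
Number of CpG island regions over 1 kb from a gene start (y axis) by distance from the middle of the region to the nearest listed start (x axis, kb), with the islands that have no listed gene at the right. Colours show the library of the call, and of the totals printed over the bars the 295 islands at 1 to 2 kb and the 293 with no gene are the largest.

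The islands came in groups more often than other regions. Another Nkx2.2 region lay within 2 kb of 397 islands, 33.1% (30.4 to 35.9%), against 14.1% of no-island regions over 1 kb from a start and 20.0% of islands within 1 kb of one. The nearest region was itself an island over 1 kb from a start for 147 of the 397, an island within 1 kb of a start for 133 and a no-island region over 1 kb from a start for 102. At least 2 intervals had been merged in 321 islands, those called in both libraries. The median length of the islands was 611 bp, with quartiles of 476 and 772.5 bp, and 22 held 2 CpG islands while the rest held 1. Of these 22 regions all were called in OL and 14, 63.6% (40.7 to 82.8%), in OPC. Over all islands more than 1 kb from a start the shares were 88.2% and 38.6%, and over all regions 85.3% and 38.6%. The 22 had a median length of 743.5 bp, and islands called in both libraries one of 762 bp. Whether length accounts for these calls was not tested. After the longest of all, those with 2 CpG islands were longest at Tpte2, where a region of 2459 bp had 3.83 in OPC and 6.85 in OL, and upstream of Nfib, a nuclear factor I gene, where one of 1800 bp had 5 and 3.49. Fbxl19, an F-box gene whose product binds CpG-rich DNA, had 8.48 and 11.02 at a region of 1417 bp.

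The highest region in both libraries was the 6126 bp region at chr17:39979839-39985965, with 51.2 in OPC and 60.1 in OL, which is listed inside LOC627695 and downstream of Mirn715. It covers the starts of both genes, although its middle lies 1091 and 1822 bp from them, and its repeat content was not checked. Without it OPC calls covered 38.6% of the islands, OL calls 88.1% and shared calls 26.7%. Next in OPC came an island 23176 bp into Rgs3, a regulator of G protein signalling (chr4:62243745-62244369), with 14.4 in OPC and 16.6 in OL. An island 236761 bp into Phactr1, a regulator of actin and of protein phosphatase 1, had 13.3 in OPC and 8.67 in OL. These were sites called in both states, as were 9 of the 10 highest in OPC. An island 1009 bp upstream of Yrdc, which is also listed for Mtf1, a metal-responsive transcription factor gene, had 11.9 and 14, and one inside Dcp2, the mRNA decapping enzyme gene, 11.1 and 14.4.

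In OL the highest after the long region was an island downstream of LOC100043389 on chromosome 11 that holds 2 CpG islands, with 12.5 in OPC and 21.3 in OL. Btrc, the ubiquitin ligase subunit that marks beta-catenin for degradation, had 9.09 in OPC and 17.95 in OL at 7714 bp into the gene (chr19:45437731-45438471). Ctnnb1, the gene of beta-catenin, whose start window is shown above, had 6.27 and 16.7 at an island 1130 bp into the gene (chr9:120843518-120843928). The log2 ratios of this pair were 0.91 and 1.28. Both genes were taken from the 10 highest islands in OL, a choice that favours more signal in OL. Mllt4, which encodes the junction protein afadin, had 5.43 and 17.59 at an island 1249 bp upstream that also lies inside Tcte2. Arhgef1, a guanine nucleotide exchange factor gene, had 3.50 and 15.0 at an island 1244 bp into the gene and downstream of Cd79a, and Rabepk 5.46 and 15.9 at an island 2502 bp upstream. All of the 10 highest islands in OL were called in both libraries, and 3 of them were also among the 10 highest in OPC.

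The largest differences were taken among the 599 islands above the islands' median mean signal of 4.06. Toward OL the first was an island downstream of the start of Slitrk1, a neuronal transmembrane protein gene, with 1.44 in OPC and 8.64 in OL, or 1.98 as a log2 ratio. Icam5, which encodes an adhesion molecule of forebrain neurons, had 1.82 and 9.62 at an island 5571 bp into the gene, which is also listed for Icam1 and Icam4. Ephb2, an ephrin receptor gene, had 1.76 and 7.65 at an island 79505 bp into the gene. Cutl2, an older name of Cux2, a homeodomain gene of upper-layer cortical neurons, had 1.92 and 8 at an island 2261 bp upstream. Its other island, 98959 bp into the gene and not among these largest differences, had 4.4 and 2.67 and was called in OPC only. Slc26a1, an anion transporter gene, had 3.28 and 12.4 at an island that also lies inside Idua. Of these 10 islands 8 were called in OL only. The remaining 5 lay in Arhgef1, in C030014M07Rik, near Hpca and Tmem54, and at 2 places with no listed gene.

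The differences toward OPC were taken among the same islands. Trib1, a pseudokinase gene that acts on C/EBP proteins, had 8.86 in OPC and 1.47 in OL at an island 1056 bp upstream (chr15:59478792-59479515), a log2 ratio of -1.997. Ccdc6, whose start window is shown above, had 9.55 and 1.94 at an island 1292 bp into the gene (chr10:69560848-69561475), a ratio of -1.84. An island with no listed gene on chromosome 8 had 6.30 and 2.10. Only these 3 of the 10 most negative islands above the median signal reached -1. Spred2, which restrains Ras and ERK signalling, had 9.20 in OPC and 4.78 in OL at an island 3921 bp upstream, and 4.11 and 2.67 at another 1845 bp into the gene. Irs2, a substrate of the insulin receptor, had 7.38 and 3.42 at an island 29896 bp downstream of its start, but 6.4 and 7.14 at one 1298 bp into the gene.

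A signal of 0 in OPC was listed at 11 islands, all called in OL only. Such regions were rarer among the islands, at 0.92%, than among all regions, at 6.04%. The highest OL value among them was 6.43, at an island inside Il17re and upstream of Il17rc, both genes of interleukin 17 receptors. Kcnq1, a potassium channel gene in an imprinted cluster, had 6.00 in OL at an island 189418 bp into the gene (chr7:150482440-150482715). Grhl1, a transcription factor gene of epithelia, had 5.67, Nkx1-2, a homeobox gene, 3.92, and Fezf2, a gene that specifies deep-layer cortical neurons, 3.77. In the opposite direction Foxq1, a forkhead gene, had 3.69 in OPC at an island 1218 bp into the gene and was listed at 0 in OL, as was an island with no gene on chromosome 15 with 4.4 in OPC. No fold is given for single regions listed at 0, but counts and medians in the text include their ratios with the pseudocount.

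Islands with no listed gene were like the others in level. Among the 293, the medians were 3.42 in OPC and 4.93 in OL, and the log2 ratio was 0.56 at the median. Calls were made at 116 in OPC, 39.6%, and at 260 in OL, 88.7%. These shares were 38.6% and 88.2% over all islands more than 1 kb from a start, and 38.6% and 85.3% over all regions. The highest in OL lay at chr12:84972683-84973470, with 8.41 in OPC and 16.1 in OL. Another, at chr1:197067501-197068258, had 12.6 in OPC and 12.9 in OL, the highest OPC value among them. At chr13:48322948-48323411 the values were 4.58 and 13.5, with a call in OL only. Both shared and OL-only calls thus occurred at strong islands with no gene.

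Genes were next taken by list, each by the island region over 1 kb from a start with its highest signal in either library. An island region of this kind was listed for 1199 gene names, a number equal to that of the regions by coincidence, out of 14473 names with any region, 8.28%. Over these genes the median log2 ratio was 0.59, calls were present in OPC at 37.9% and in OL at 89.3%, and ratios of 1 or more and -1 or less were found at 20.9% and 2.75%. These are the values to set the lists against, and genes that share a region are counted separately.

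Of the 30 symbols for transcription factors of the oligodendrocyte lineage, 26 had any region and 11 had such an island, of which OPC calls covered 4 and OL calls 10. Their median log2 ratio was 0.71, with 10 of 11 above 0, 2 at 1 or more and 0 at -1 or less. Ratios above 0 were also found at 81.4% of all islands over 1 kb from a start and 77.4% of all regions. Averaging all such islands of a gene gave a median of 0.47, and Nfib, with 5 in OPC and 3.49 in OL at its other island, then had -0.03. Nkx2-2 itself had 2.50 in OPC and 5.31 in OL at an island 1872 bp upstream of its start (chr2:147013550-147014471), with a call in OL only. At its start, 4.44 and 5.57 were measured in a region with no island. Gm98, an older name of Myrf, the activator of myelin gene expression, had 1.58 and 4.54 at an island 2910 bp upstream, a log2 ratio of 1.10. Nfic, a nuclear factor I gene, had 2.75 and 6.57, a ratio of 1.01, at 4573 bp upstream, and 1.83 and 6.09 at another island 3187 bp upstream. Sox6, a Sox gene that holds OPCs back from differentiation, had 3.77 and 7.10 at 1908 bp upstream and 5.63 and 6.47 at 3578 bp upstream. At the highest island of each gene the exception to the sign was Yy1, a zinc finger factor needed for OPC differentiation, with 4.23 in OPC and 3.38 in OL and a call in OPC only. Among the other islands of these genes, 1 of Zeb2 had -0.90 and those of Hes1 went down to -0.51.

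Genes named by earlier work as Nkx2.2 targets had such islands at 4 of the 10 with any region, 1 with an OPC call and all 4 with an OL call. Pdgfra, the receptor for the mitogen of OPCs, had 1.78 in OPC and 5.06 in OL at an island 4362 bp into the gene (chr5:75552156-75553200), called in OL only. At another island, 1146 bp into the gene (chr5:75549204-75549721), it had 4.31 and 2.64, called in OPC only. At its start, where the authors assigned an island although the RefSeq window shown above holds 5 CpG, the values were 7.60 and 2.33. The first kb or so of Pdgfra thus had more OPC signal and the island farther in more OL signal, with log2 ratios of -0.55 and 1.13 at the islands past 1 kb. Neurod1, a basic helix-loop-helix gene, had 1.00 and 4.30 at 2358 bp into the gene, and Tcf7l2, a Wnt effector, 3.18 and 5.18 at 1436 bp into the gene. The median log2 ratio over the 4 genes was 0.99, or 0.71 with the mean over all such islands of each gene. With that mean Pdgfra had 0.29.

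Notch pathway islands were present at 5 of 29 genes with a region, 2 called in OPC and 5 in OL, at a median ratio of 0.71 on the log2 scale, or 0.37 with the mean over all such islands of each gene. Rbpj, the DNA-binding effector of the pathway, had 3 islands in a row about 34 kb into the gene. The middle one, which holds 2 CpG islands (chr5:53981098-53982072), had 4.64 in OPC and 9.28 in OL, the one before it 3.00 and 5.27, and the one after it 1.43 and 4.12. All 3 had more signal in OL on the deposited scale. Hes1, a target of Notch that represses differentiation genes, had 4 islands, the most of any gene. The nearest island upstream of its start had 2.77 and 5.19 and the one inside the gene 3.08 and 4.35, both called in OL only. The outer islands, 2304 bp upstream and 4385 bp downstream of the start, had 3.93 and 2.45 and 3.93 and 3.23, both called in OPC only. Among the ligands, Dll3 had 3.89 and 5.29 and Dll4 4.86 and 4.21, and the receptor gene Notch4 had 2.00 and 4.08. The other island of Dll4, 12219 bp downstream of its start, had 1.83 and 4.32, a log2 ratio of 0.91, and was called in OL only. At its highest island no gene of the Notch list reached a ratio of 1 or -1, while the last of the Rbpj islands had 1.08.

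Wnt genes had an island region over 1 kb from a start at 6 of 46 with any region, 3 called in OPC and 6 in OL, at a median ratio of 0.81 on the log2 scale and 2 at 1 or more. Besides Ctnnb1 and Tcf7l2 these were the receptors Fzd3, with 3.68 in OPC and 4.65 in OL, and Fzd7, with 2.40 and 4.72. Dvl2, which relays the signal from the receptors, had 2.42 and 5.25. Sfrp2, a secreted inhibitor, had 1.00 and 4.38 at an island 1907 bp upstream, a ratio of 1.43. At the Ctnnb1 start itself 3.31 and 10.1 were measured, so the start and the island 1130 bp into the gene both had more OL signal.

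BMP and TGF-beta genes had 3 of 28, all called in OL and 0 in OPC, at a median ratio of 1.04 on the log2 scale. Bmp4, the ligand, had 1.82 and 4.81 at 1720 bp into the gene and 1.83 and 4.07 at 2692 bp. Nog, a secreted inhibitor of BMPs, had 1.3 and 4.33 downstream of its start, and Smad7, an inhibitor inside the cell, 3.53 and 4.46. A ligand and both kinds of inhibitor were therefore on the OL side of the deposited scale, as were 81.4% of all islands over 1 kb from a start. Among genes of growth factors, their receptors and their feedback inhibitors, 11 of 43 had such an island, 4 called in OPC and 9 in OL. Fgf9 had 2.14 and 6.17, Ntrk2, the BDNF receptor gene, 2.77 and 6.09, and Dusp6, which removes phosphate from ERK, 1.85 and 4.30. Spry2, another inhibitor of this signalling, had 4.33 and 2.64 at 1670 bp into the gene, called in OPC only. Its other island, 2130 bp upstream, had 3.33 and 4.06 and was called in both.

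Chromatin factors and corepressors had such islands at 13 of 77 genes with a region, all 13 called in OL and 8 in OPC. Their median log2 ratio was 0.60, close to the 0.59 over all genes with an island, with 2 at 1 or more and 0 at -1 or less. Sin3a, a corepressor scaffold, had 5.96 in OPC and 9.58 in OL at 2669 bp upstream (chr9:56921110-56921930). Jmjd3, an older name of Kdm6b, a demethylase of histone H3 lysine 27, had 3 islands called in both libraries, with 4.93 and 9.20 at the highest, 6.14 and 5.80 farther into the gene and 5.56 and 7.11 upstream. Arid1a, a subunit of BAF remodelling complexes, had 5.48 and 9.02 at 3600 bp upstream, and Arid1b 2.07 and 5.79 deep in the gene. Tle3, a Groucho corepressor gene, had 4.91 and 7.54 at 1206 bp upstream and 4.11 and 6.79 at 4567 bp upstream. Tle2 and its neighbour Aes share 1 island, with 5.30 and 5.59. Rcor2, a partner of the demethylase LSD1, had 6.36 and 6.07, and Hdac10 5.85 and 5.6, both called in OL only although the OPC value was the higher one.

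**Figure D5:**
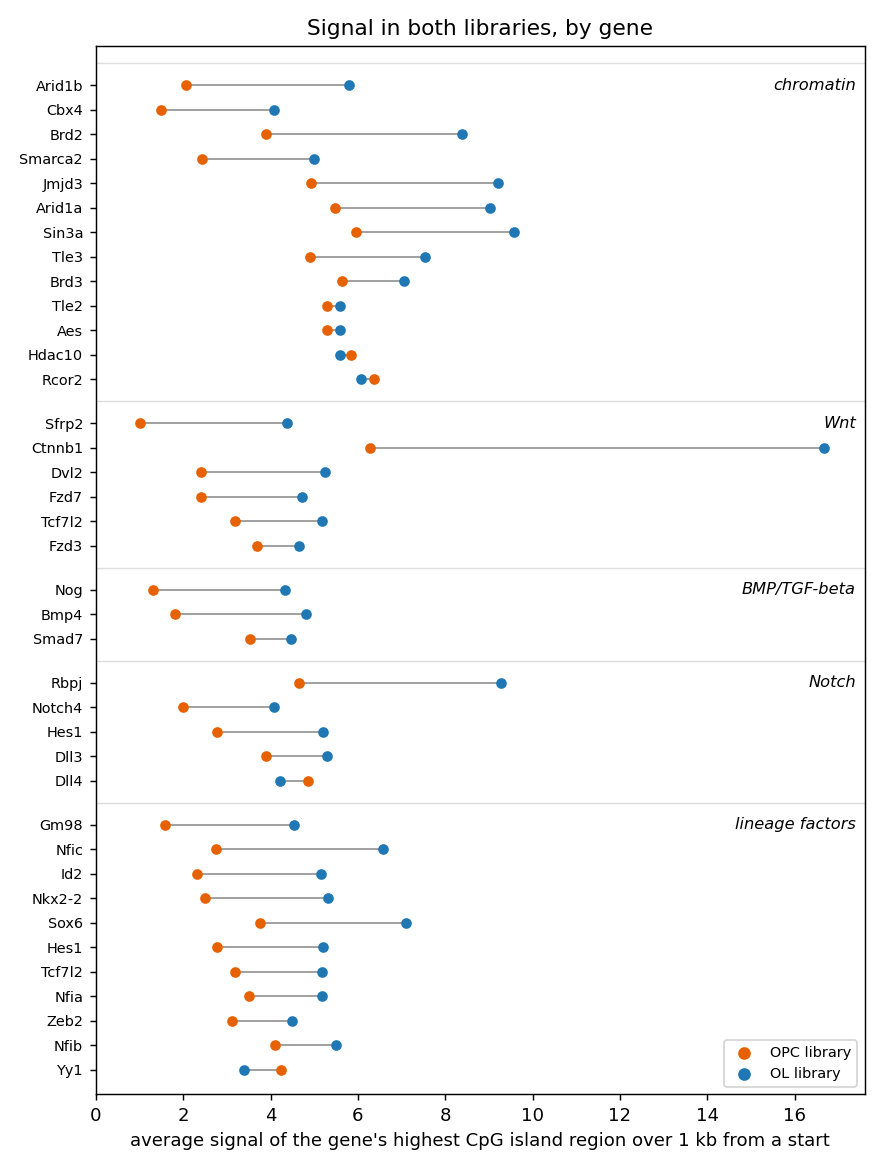
Average Nkx2.2 signal (x axis) in the OPC library and the OL library at the highest CpG island region over 1 kb from a start of each gene (y axis) in 5 lists, on the deposited scale, with a line joining the values of a gene. Ctnnb1 is highest with 6.27 in OPC and 16.7 in OL, and Yy1, Dll4, Hdac10 and Rcor2 are the genes with more OPC than OL signal.

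Imprinted genes, whose control regions are often islands inside genes, had such islands at 4 of 45 with a region, all called in OL and 0 in OPC. Their median log2 ratio was 1.11, a value that includes Kcnq1, which was listed at 0 in OPC. Kcnq1 is given above. Gnas had 2.33 in OPC and 6.88 in OL at an island 45341 bp into the gene (chr2:174155026-174155299) and 2.9 and 4.4 at the next. Sfmbt2, a Polycomb group gene imprinted in mouse placenta, had 1.67 and 4.27 at 2185 bp into the gene, while its start had 5.20 and 3.53, and Impact had 2.09 and 4.21. The clustered protocadherins, which have many small islands, had a region at 36 of 58 symbols and no island over 1 kb from a start.

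Homeobox genes had such islands at 15 of 61 with a region, 2 called in OPC and 14 in OL, at a median ratio of 0.68 on the log2 scale. Phox2a, an autonomic neuron factor, had 1.00 in OPC and 4.14 in OL, and Pou3f1, a POU factor of Schwann cells and neurons, 4.2 and 2 with a call in OPC only. Basic helix-loop-helix, Sox and forkhead genes had 18 of 61, 8 called in OPC and 16 in OL, at a median of 0.72. The Id genes, inhibitors of basic helix-loop-helix factors, had 1.92 and 3.82 at Id1, 2.31 and 5.15 at Id2 and 1.61 and 6.14 at Id3, each called in OL only. Sox2 had 4.33 and 7 at 7291 bp upstream and Sox21 6.58 and 7.29, both called in both libraries. Foxo1 had 4.17 and 2.18, called in OPC only. Nuclear receptor genes had 9 of 28, 2 called in OPC and 8 in OL, at a median of 0.73, and the highest OL value was 9.13 at Nr4a3, with 3.62 in OPC. Of the OPC marker genes, 4 of 24 had such an island, 3 called in OPC and 4 in OL, and Ccnd1, the gene of cyclin D1, had 3.61 and 3.88. Of the genes of myelin and of newly formed oligodendrocytes, only Bmp4 of 35 with a region had one.

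Where 1 gene had several islands, their ratios were not always on the same side of 0. Among 126 genes with 2 or more islands, all ratios were above 0 at 72, all at or below 0 at 11, and on both sides at 43. Genes that share islands are counted separately. Of all islands over 1 kb from a start, 81.4% had a ratio above 0. The counts were not set against islands of unrelated genes, so they do not show whether islands of 1 gene differ more or less. Both an OL-only and an OPC-only island, at any distance from each other, were listed for 19 of the 126 genes, Hes1, Pdgfra and Zeb2 included. Zeb2, which encodes a repressor needed for myelination, had 1.69 and 4.50 at 4340 bp into the gene and 4 and 1.69 at 4051 bp upstream. Ubtf, a factor of ribosomal RNA transcription, had 1.19 and 4.48 downstream and 4.52 and 2.50 upstream. A region within 1 kb of the start was also present at 432 of the 1199 genes, 36.0%, and there the median log2 ratio was 0.59 at the island and 0.54 at the start.

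The islands near miRNA genes were called in OL at 14 of 15 and in OPC at 6 of 15. At 12 of them the ratio was above 0, at 3 it was 1 or more and at 0 it was -1 or less. Of all islands over 1 kb from a start, 88.2% were called in OL and 38.6% in OPC. Their ratios were above 0 at 81.4%, 1 or more at 20.2% and -1 or less at 2.42%. The counts near miRNA genes were close to these shares. The cluster of let-7a-1, let-7f-1 and let-7d, miRNAs that rise as cells differentiate, had 3.39 in OPC and 5.81 in OL at 1 island on chromosome 13 upstream of all 3 genes, called in both. The fourth let-7 gene, let-7e, shares a pair of islands on chromosome 17 with miR-99b and miR-125a, with 3.00 and 3.77 upstream of the genes and 4.65 and 5.62 downstream of them. None of these 3 let-7 islands reached a ratio of 1. The miR-17 to miR-92 cluster, which promotes proliferation, had 3.11 and 3.86 at 1 island upstream of its 6 genes. miR-9, a miRNA of neural progenitors, had 1.67 and 4.50 at an island 7818 bp upstream of Mirn9-2 and 2.94 and 4.76 at one 9200 bp upstream of Mirn9-3. The ratios of 1 or more were those of Mirn9-2, with 1.04, Mirn135b, with 1.00 and 4.6 and a ratio of 1.49, and Mirn346, with 4.11 and 9.28 and a ratio of 1.01. Mirn124a-1, a neuronal miRNA gene, had 4.12 in OPC and 1.83 in OL at an island 2745 bp upstream, the only one of the 15 called in OPC only, and Mirn130a had 6.16 and 3.83. No expression of these miRNAs was measured here.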

How the data were processed

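Nkx2.2 ChIP-seq libraries of OPC and OL were read from 1 deposited table of merged regions. Average and highest signal per region and library, the calls of each library and the CpG island, promoter and gene assignments are the authors', per the file headers. The submitters' processing notes name BWA, MACS 1.4.2 and the build mm9, with no settings. The sources used here do not give any scaling, the definition of an island, how the input was used or the threshold for a call. No source says whether coordinates count from 0 or 1. Signal gives no read counts, so depth is unknown and limits precision by an unknown amount. From the deposited signal log2((OL + 1) / (OPC + 1)) was computed, with a pseudocount of 1 that understates the ratio of weak regions and with no filter on low signal. Distances run from the middle of a region, which 19998 of 20000 pairs of regions listed for 1 gene matched within 1 bp. Calculations used Python 3.11.15, pandas 2.3.3, NumPy 2.4.6 and SciPy 1.17.1 and were tested on simulated data. Clopper-Pearson 95% intervals cover counting error only. With 1 library per state no test was run. Regions named were the 10 highest per library, the 10 largest ratios in each direction above the islands' median mean signal, those with most CpG islands, those listed at 0, and genes of fixed lists. The islands, the 20 gene lists and these rules were chosen with earlier results of these data known. Of 14473 gene names 13006 matched RefSeq GRCm38.p6, used for names and sequences alone. Alternatives tried were other distance limits, promoter features, stricter calls, pseudocounts, a signal filter, peak signal, rescaling, and leaving out chromosome X, regions with no gene or the longest region.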

Additional observations from a re-analysis of the deposited data

How the results depend on the processing

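No paired analysis was possible because each state has 1 library and no test was run. With distance limits of 500, 2000 and 5000 bp the share of islands inside a gene was 50.6%, 37.3% and 32.9%, and without a listed gene 16.4%, 32.4% and 43.7%. The share of islands among regions called in both was then 5.14%, 2.86% and 2.09%, among OL-only regions 4.89%, 2.41% and 1.81%, and among OPC-only regions 3.79%, 1.78% and 1.27%, as follows from the number of regions each limit admits. Without the promoter feature 38.9% lay in a gene and 42.5% had none. Stricter calls, at or above each library's median signal over its calls, left calls at 13.4% of islands for OPC, 35.3% for OL and 7.76% for both. The median log2 ratio was 0.63 with a pseudocount of 0.5, 0.32 with 5, 0.47 at or above the median mean signal of all regions, 0.74 with peak signal, 0.34 with the median of regions called in both set to 0, and -0.15 with the median of all regions set to 0. The share at 1 or more was 25.5%, 0.67%, 14.3%, 37.7%, 9.51% and 1.42% in that order, and the share at -1 or less 0.17%, 0.50%, 5.34%, 4.34% and 12.2% from the pseudocount of 5 on. The mean over both islands of Bmp4, the only gene of its myelin list, was 0.94. The other 56 values recomputed, those without chromosome X and without the longest region among them, stayed within the interval or spread of the reported one. Of 300 recomputed ratios of single named regions 65 crossed 1 or -1 and 0 of those at or past 1 or -1 changed sign. Only peak signal could have changed such a sign, because a pseudocount keeps the sign and the rescalings moved ratios by less than 1. The cause of these changes was not tested. With 1 library per state and no depth, a ratio within the range moved by scaling cannot be read as a difference between OPC and OL.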

Other observations

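Markers of other cell types that a culture of cortical cells could hold were also looked up, beside the 8.28% of all gene names with a region that had an island over 1 kb from a start. Of the astrocyte list 0 of 11 genes with a region had one, and of the vascular list 0 of 4. The neuron list had 1 of 9, the neurofilament gene Nefm, with 3.53 in OPC and 8.11 in OL and calls in both. The microglia list had 2 of 4, Aif1, with 5.61 and 4.44 at an island 10758 bp downstream of its start, and Sfpi1, an older name of Spi1, with 2.08 and 4.50. ChIP signal at a marker gene does not show that the gene is expressed, and the makeup of the culture was not tested.

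Of 70 ion channel and receptor genes with a region 9 had an island over 1 kb from a start, with a median log2 ratio of 0.29, or 0.12 with the mean over all such islands of each gene, 4 called in OPC and 8 in OL. Grm5, a glutamate receptor gene, had 5 in OPC and 2.56 in OL deep inside the gene, called in OPC only. Cacnb3, a calcium channel subunit gene, had 1.00 and 3.57.

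By chromosome, islands over 1 kb from a start made up 2.16% (1.15 to 3.66%) of the regions on chromosome X, where there were 13, and 4.07% (3.32 to 4.94%) on chromosome 11. The median log2 ratio over these islands lay between 0.41 on chromosome 18 and 0.67 on chromosome 8.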
